A study of Mus musculus with 96 samples.

Results

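Krt7, Krt8, Krt18 and Krt19 are the simple epithelial keratins described here, 4 of the 37620 genes in each RNA-seq count table. They were chosen by their symbols, with earlier results of these data in view: their values in the Rybp knockdown entered the choice, so these values are given as a description with no test. The Wdr5 knockdown shares its control libraries with the Rybp knockdown and is described in the same way. All 4 genes passed the filter on low counts in all 7 tables, Krt7 in the TF-AA mutation through the treated libraries alone.

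Keratins are the intermediate filament proteins of epithelial cells. A type I keratin pairs with a type II keratin to form a filament, and a keratin without a partner is unstable. Krt8 (type II) and Krt18 (type I) are the first keratins of the mouse embryo and mark the trophectoderm, while embryonic stem cells (ESCs), which resemble the inner cell mass, hold little of them. Krt19 (type I) lacks most of the tail domain of other keratins, and Krt7 (type II) is known from ducts and other simple epithelia.

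The cells were mouse ESCs grown with serum and LIF, and the study addressed the role of RYBP, a subunit of Polycomb repressive complex 1 (PRC1), in ESC gene expression. For RNA-seq, each of 7 count tables held 2 control and 2 treated libraries, 28 columns in all from 26 libraries of the 96 samples. In the Rybp knockout, the line was R7.15 with floxed Rybp and CreERT2 at Rosa26: Rybp+/+ ESCs of this line were compared with Rybp-/- ESCs, in which Rybp was deleted by 4 days in 5 µM 4-OHT. 4-OHT and the loss of Rybp therefore cannot be told apart there. In the knockdowns, R1 ESCs with shRybp or shWdr5 were set against R1 ESCs with the empty vector (shEV). In the TF-AA mutation, mutant R1 ESCs were set against WT ESCs, and the labels do not spell out which change the name stands for. In the RYBP phase disruption, R7.15 ESCs with floxed Rybp, treated with 4-OHT, overexpressed either RYBP lacking 21 amino acids or WT RYBP (WT.RYBP). In the RYBP overexpression, J1 ESCs with Tet-inducible RYBP received DOX or vehicle. In the RYBP and STAT3 overexpression, ESCs with DOX-inducible Rybp and Stat3 (rTRS) received DOX or were the control labelled NTC. ChIP-seq used Rybp+/+ and Rybp-/- ESCs of R7.15, R1 ESCs with shStat3, a knockdown of Stat3, against R1 ESCs with shEV, and R1 ESCs that carry DOX-inducible Rybp and Stat3 (Tet.Rybp.Stat3), without and with DOX. Whether a line was a single clone is not given in the sources used here, and DOX and the induced factors cannot be told apart.

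Krt7 (ENSMUSG00000023039), Krt8 and Krt18 lie on chromosome 15 and Krt19 on chromosome 11 of mm9. Krt8 at chr15:101827142-101834773 on the minus strand and Krt18 at chr15:101858647-101862457 on the plus strand start 23.9 kb apart and point away from each other, so that their promoters share the space between them. Krt7 at chr15:101241474-101260744 lies on the plus strand and Krt19 at chr11:100002124-100009979 on the minus strand. No other annotated gene overlapped any of the 4 genes. The 250 bases before the start site of each gene are shown because the peaks described later lie at these promoters. They are read 5′ to 3′ on the strand of the gene from mm9, with the GC box (GGGCGG, either strand) in capitals. The windows are chr15:101242583-101242832 for Krt7, chr15:101834774-101835023 for Krt8, chr15:101858397-101858646 for Krt18 and chr11:100007435-100007684 for Krt19. The start sites are those of the transcript used here for each gene. The Krt7 window partly overlaps an exon of another annotated Krt7 transcript, and the Krt19 window lies in an intron of a longer Krt19 transcript.

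Krt7: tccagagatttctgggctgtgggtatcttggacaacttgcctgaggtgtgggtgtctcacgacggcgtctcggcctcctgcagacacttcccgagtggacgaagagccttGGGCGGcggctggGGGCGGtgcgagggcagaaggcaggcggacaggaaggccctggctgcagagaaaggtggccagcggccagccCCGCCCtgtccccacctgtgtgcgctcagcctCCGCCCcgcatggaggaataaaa
Krt8: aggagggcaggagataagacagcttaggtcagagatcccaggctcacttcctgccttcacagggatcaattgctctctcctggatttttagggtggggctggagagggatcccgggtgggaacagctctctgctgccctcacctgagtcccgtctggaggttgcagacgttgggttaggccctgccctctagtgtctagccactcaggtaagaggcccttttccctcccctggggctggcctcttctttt
Krt18: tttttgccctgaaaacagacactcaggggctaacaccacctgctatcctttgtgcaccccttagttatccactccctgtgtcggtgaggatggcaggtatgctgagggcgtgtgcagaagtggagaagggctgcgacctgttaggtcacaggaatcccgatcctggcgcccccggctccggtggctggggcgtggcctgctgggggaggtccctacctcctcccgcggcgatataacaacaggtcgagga
Krt19: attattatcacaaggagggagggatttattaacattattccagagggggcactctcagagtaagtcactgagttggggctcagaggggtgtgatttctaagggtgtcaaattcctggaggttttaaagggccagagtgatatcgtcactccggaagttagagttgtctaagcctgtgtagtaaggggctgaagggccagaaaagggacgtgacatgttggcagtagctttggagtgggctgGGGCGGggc

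The Krt7 window held 4 GC boxes and the Krt19 window 1, while the Krt8 and Krt18 windows held none. The same motif is in 41.0% of 22349 promoter windows of coding genes. The other motifs searched, on both strands, were the AP-1 motif TGANTCA (5.87% of promoters), the TATA box TATAAA (12.3%) and the STAT motif TTCNNNGAA (6.77%), and none of these was in the 4 windows. The promoters also differed in base composition. GC content was 65.6% at Krt7, 58.0% at Krt8, 60.4% at Krt18 and 50% at Krt19, against a median of 54.8% over all promoters. The Krt8 window held 3 CpG sites and the Krt19 window 4, while the Krt18 window held 12 and the Krt7 window 16. The ratio of observed to expected CpG was 0.143 at Krt8 and 0.307 at Krt19, below the median of 0.513 over all promoters.

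Libraries held between 14512857 and 81049618 counts on genes, and levels are given as CPM, the count scaled to library size with TMM factors. Markers of pluripotent ESCs summed to between 4030 and 10900 CPM in every library, and none of the 11 measured was below 1 CPM in all libraries of a table. In the Rybp knockout, Rybp fell from 110 and 110 to 24.8 and 25.0 CPM. In the Rybp knockdown, Rybp fell from 85.7 and 86.4 to 35.8 and 36.6 CPM, and in the Wdr5 knockdown, Wdr5 fell from 350 and 343 to 60.0 and 58.2 CPM. In the RYBP overexpression, Rybp rose from 135 and 145 to 522 and 535 CPM. In the rTRS libraries labelled DOX, Rybp was at 102 and 99.8 CPM against 113 and 110 in NTC (adjusted p = 0.076), while Stat3 rose from 159 and 172 to 191 and 188 CPM (adjusted p = 0.026). The Rybp count therefore does not check the label of those libraries, and every direction drawn from them rests on the label. The labels do not say that replicates came from separate cultures, so p-values measure only the spread between these libraries. Krt8 reads are hard to place: 65.7% of the 32-base windows of its transcript occur elsewhere in mm9, against 11.2% for Krt18, 5.86% for Krt7 and 0.0647% for Krt19. Counting could split or drop such reads, so the level of Krt8 is uncertain. The filter on low counts kept genes that reached 0.128 to 0.65 CPM, depending on the table, in 2 libraries. A gene below that level in both libraries of a group passed through the other group alone and had to differ, so the counts of each list are given with the number of such genes among them, and nothing is read from those genes.

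In the Rybp knockdown, all 4 keratins were higher in both shRybp libraries than in both shEV libraries. Krt19 had 1.92 and 1.71 CPM in shEV ESCs and 41.1 and 43.3 CPM in shRybp ESCs, a ratio of 23.2. Krt18 had 8.55 and 7.80 CPM in shEV ESCs and 64.7 and 69.3 CPM in shRybp ESCs, a ratio of 8.20. The groups lay far apart for both type I keratins. Krt7 had 1.26 and 1.06 CPM in shEV ESCs and 6.45 and 5.93 CPM in shRybp ESCs, a ratio of 5.33. Krt8, the most abundant of the 4 in shEV ESCs, went from 30.5 and 34.6 CPM to 111 and 124 CPM, a ratio of 3.61. The order of the ratios thus ran from Krt19 over Krt18 and Krt7 to Krt8. The log2 fold change was 4.53 (SE 0.12) for Krt19, 3.03 (SE 0.08) for Krt18, 2.41 (SE 0.21) for Krt7 and 1.85 (SE 0.07) for Krt8, which put Krt19 at rank 42 and Krt8 at rank 819 of 16538 genes. Of all genes tested, 52.7% were called, 26.8% higher and 26% lower, and nothing is read from the count of 4 since this contrast chose the members. Of the called genes 50.8% were higher, and 71.2% with library size alone as scaling, which moved the median of all genes from 0.02 to 0.18. In bulk RNA, more cells of a type and more RNA per cell cannot be told apart.

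**Figure D1:**
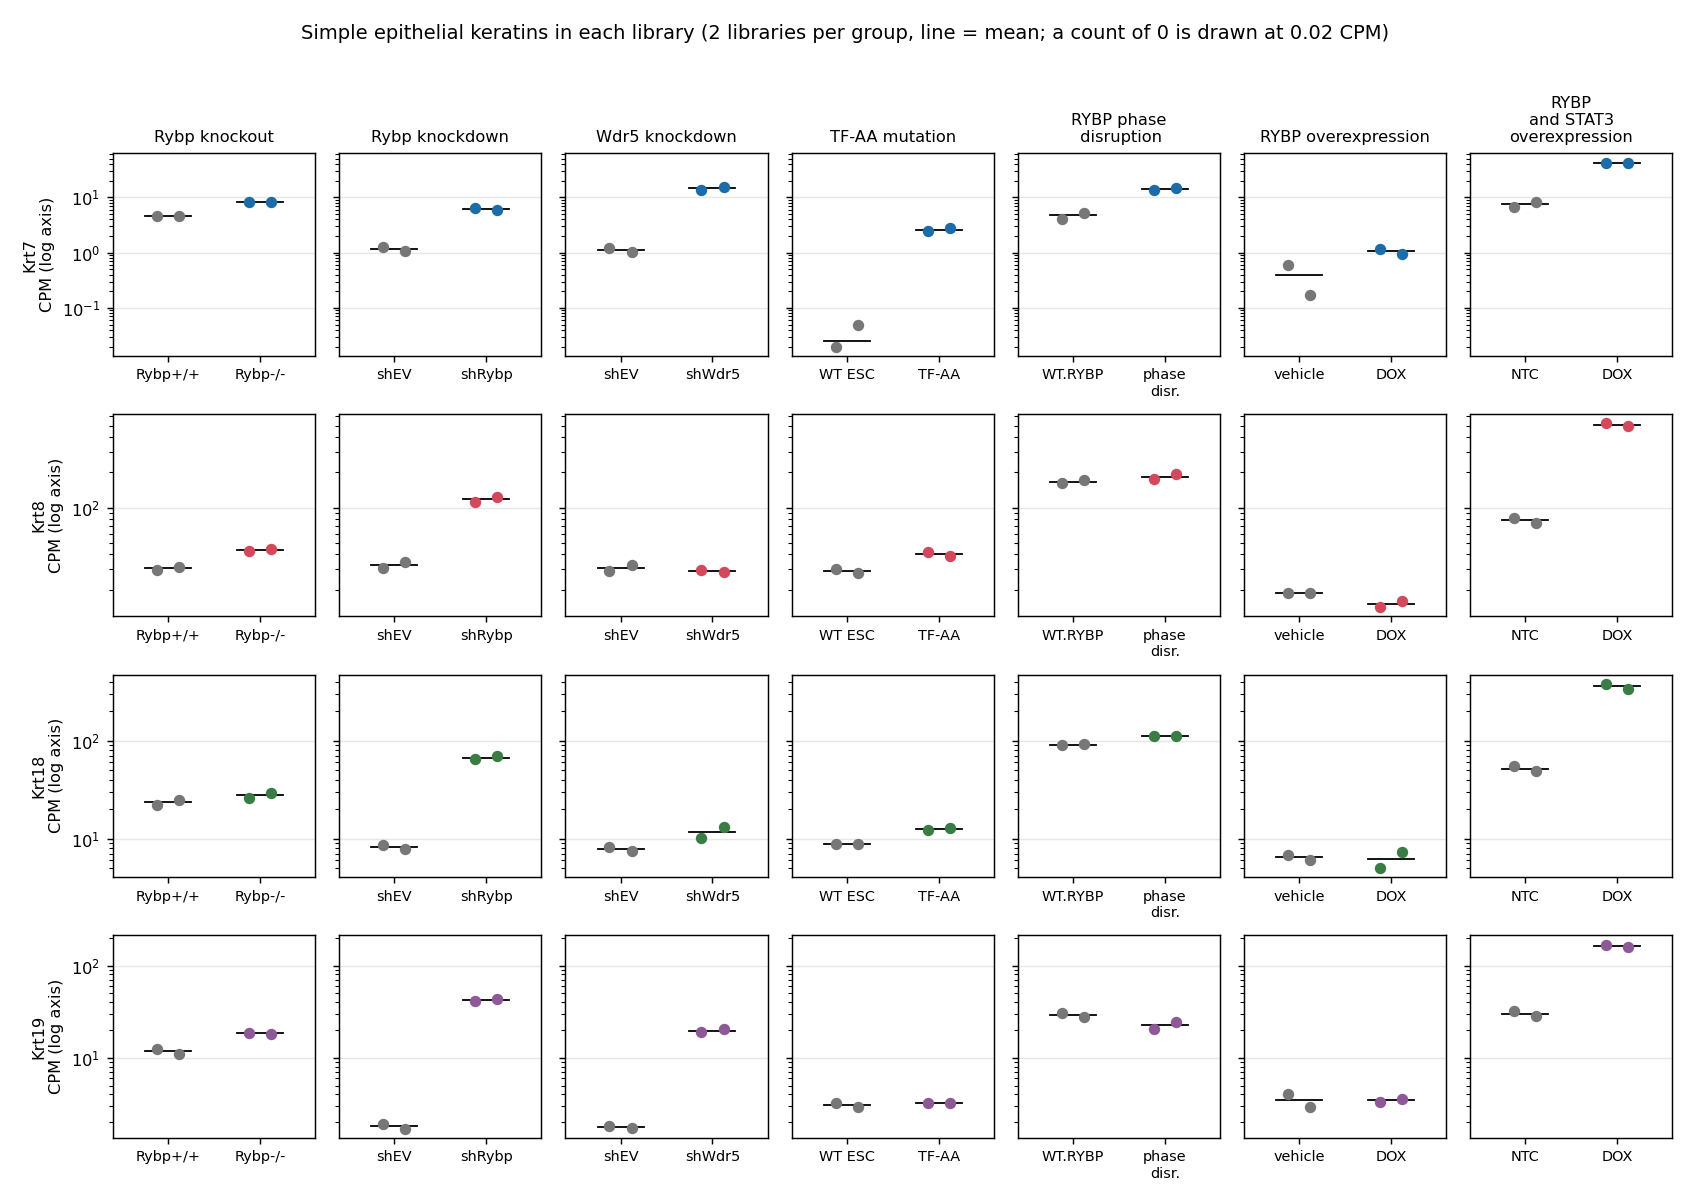
CPM of Krt7, Krt8, Krt18 and Krt19 in each library of the 7 comparisons, on a log axis, with grey control and coloured treated libraries and a line at each mean; a count of 0 is drawn at the bottom. In the Rybp knockdown Krt19 goes from 1.71 and 1.92 to 41.1 and 43.3 CPM, and in the rTRS libraries all 4 genes are higher in both libraries labelled DOX.

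Of the 16 other keratins tested in the Rybp knockdown, edgeR called 10 higher and 1 lower, but 3 of the 10 (Krt5, Krt14 and Krt16) passed the filter through the shRybp libraries alone. Krt17, a keratin of stressed and basal epithelia, rose from 11.5 and 11.1 to 19.5 and 18.6 CPM (log2 fold change 0.75, adjusted p = 3.9e-06). Among the keratin partners, the plakin and junction proteins that tie filaments to desmosomes and hemidesmosomes, 12 of 15 rose and 1 fell (median 1.07). Desmoplakin (Dsp), which anchors keratins at desmosomes, rose from 19.0 and 18.3 to 51.3 and 55.2 CPM (1.51, adjusted p = 9.1e-12). Plectin (Plec), a linker of filaments to other structures, rose from 213 and 221 to 444 and 498 CPM (1.12, adjusted p = 3.7e-12). Both genes separated the groups without overlap.

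Among factors known to act on simple keratin genes or on epithelial fate, 13 of 19 rose (median 0.74). Jun, an AP-1 subunit, rose from 8.39 and 10.0 to 49.9 and 52.9 CPM (2.48, adjusted p = 1.8e-13). Elf3, an epithelial ETS factor, rose by 1.13 and Klf6 by 1.09 on the log2 scale. Of the epithelial junction genes, 13 of 16 rose and 1 fell (median 1.26), among them Cldn4 with 1.55, Cldn6 with 1.80 and Cdh1, which encodes E-cadherin, with 0.91. Of the trophectoderm markers, 8 of 11 rose and 1 fell (median 1.63). Hand1 had 1.09 and 0.571 CPM in shEV ESCs and 9.10 and 9.16 CPM in shRybp ESCs, and Gata3 had 1.49 and 1.06 against 10.5 and 10.7 CPM. The summed level of the trophectoderm markers was 62.9 to 69.2 CPM in shEV ESCs and 142 to 146 CPM in shRybp ESCs. Elf5 and Plac1 were below 1 CPM in all libraries, as were the primitive endoderm markers Cubn and Afp. Primitive endoderm markers summed to 424 CPM in shEV ESCs and to between 960 and 1020 CPM in shRybp ESCs, with 10 of 14 higher and 2 lower. Fibroblast markers summed to 76.7 to 80.5 and 120 to 123 CPM, with 7 of 9 higher (Col6a1 through shRybp alone) and Dcn and Lum at 0. Pluripotent ESC markers rose in 4 of 11 cases and fell in 6 (median -0.38), with sums of 10100 to 10900 CPM in shEV and 8190 to 8390 CPM in shRybp ESCs. The part of any of these cells in the keratin values was not tested.

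In the Rybp knockout, all 4 keratins rose, Krt7 the most and Krt18 the least. Krt7 had 4.55 and 4.65 CPM in Rybp+/+ ESCs and 8.21 and 8.24 CPM in Rybp-/- ESCs, a ratio of 1.79 (log2 fold change 0.84, 95% interval 0.60 to 1.07, adjusted p = 3.6e-07). Krt19 had 12.5 and 10.9 CPM in Rybp+/+ ESCs and 18.6 and 18.2 CPM in Rybp-/- ESCs, a ratio of 1.57 (0.65, 0.48 to 0.82, adjusted p = 6.2e-08). Krt8 had 29.7 and 31.4 against 42.9 and 44.3 CPM, a ratio of 1.43 (0.51, 0.40 to 0.62, adjusted p = 2.6e-09). The groups did not overlap for any of these genes. Krt18 had 22.2 and 24.6 against 26.2 and 29.2 CPM, a ratio of 1.18 (0.24, 0.10 to 0.38, adjusted p = 0.0039). Its groups lay close together, and its call was lost without Rybp+/+ replicate 1 (adjusted p = 0.084) or without Rybp-/- replicate 2 (adjusted p = 0.14). All 4 members were called higher where 22.8% of all genes were called higher, 22.7% lower and 45.5% in either direction.

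Of the 15 other keratins tested in the knockout, edgeR called 8 higher, but 3 of them (Krt4, Krt71 and Krt75) passed the filter through the Rybp-/- libraries alone. Krt42 rose from 33.4 and 35.4 to 59.5 and 58.7 CPM (0.78, adjusted p = 1.9e-14), and Krt17 from 20.1 and 21.2 to 34.9 and 34.2 CPM (0.74, adjusted p = 7.3e-12). Of the keratin partners, 8 of 15 rose (Pkp1 through Rybp-/- alone) and 4 fell (median 0.22), with Plec higher by 0.66 and Pkp2, a desmosomal plakophilin, lower at -0.50. Of the factors, 11 of 19 rose (Elf5 through Rybp-/- alone) and 3 fell (median 0.30), including Fos at 0.45. Of the junction genes, 5 of 16 rose and 6 fell (median -0.06): Lgals3 rose by 1.12, and the epithelial splicing factor gene Esrp1 stood at -0.49. Trophectoderm markers rose in 6 of 11 cases, of which Cdx2 and Elf5 passed through Rybp-/- alone, and their sum was 128 to 131 CPM in Rybp+/+ and 174 to 175 CPM in Rybp-/- ESCs. Primitive endoderm markers rose in 7 of 13 cases and summed to 320 to 330 and 456 to 458 CPM. Gata6, Sox17, Foxa2, Hnf4a, Cubn and Afp of that list were below 1 CPM in all libraries. So were Cdx2, Elf5, Plac1 and Tspan8 of the trophectoderm list. Fibroblast markers rose in 12 of 14 cases and summed to 216 to 219 and 392 to 394 CPM, with Dcn and Lum below 1 CPM. Pluripotent ESC markers rose in 5 of 11 cases and fell in 4, with sums of 6470 to 6620 and 6730 CPM. Their part in the rise of the keratins was not tested.

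In the Wdr5 knockdown, the keratins differed from each other. Krt7 had 1.22 and 1.01 CPM in shEV ESCs and 13.8 and 15.2 CPM in shWdr5 ESCs, a ratio of 13.0 (log2 fold change 3.69, SE 0.18). Krt19 had 1.82 and 1.72 against 19.1 and 20.3 CPM, a ratio of 11.1 (3.47, SE 0.15). These genes stood at ranks 81 and 108 of 15143. Krt8 had 28.7 and 32.7 CPM in shEV ESCs and 29.7 and 28.5 CPM in shWdr5 ESCs, so that the groups overlapped (log2 fold change -0.08, 95% interval -0.25 to 0.09). Krt18 had 8.14 and 7.39 against 10.1 and 13.0 CPM, a ratio of 1.49 (0.57, SE 0.14), without overlap. Here 63% of all genes were called, 31.5% higher and 31.5% lower. WDR5, a subunit of H3K4 methyltransferase complexes, and RYBP share these shEV libraries as control, so the pairs of values are set side by side only. Each knockdown also changed RNA of the other target. Wdr5 fell from 372 and 364 to 265 and 260 CPM with shRybp, and Rybp rose from 79.9 and 81.3 to 121 and 117 CPM with shWdr5. Krt7 had a ratio of 5.33 with shRybp and 13.0 with shWdr5, Krt19 of 23.2 and 11.1, Krt18 of 8.20 and 1.49, and Krt8 of 3.61 with shRybp and no separation with shWdr5.

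Of the 11 other keratins tested in the Wdr5 knockdown, edgeR called 4 higher and 5 lower, but all 4 higher (Krt5, Krt13, Krt15 and Krt36) passed the filter through the shWdr5 libraries alone, and 2 of the 5 lower (Krt1 and Krt71) through the shEV libraries alone. Krt15, the neighbour of Krt19 at 4861 bases and 1 of these 4, had 0.281 and 0.354 CPM in shEV ESCs and 8.93 and 8.93 CPM in shWdr5 ESCs, given as a description. Krt17 fell from 10.9 and 10.6 to 3.08 and 3.26 CPM (-1.76, adjusted p = 8.4e-10). Keratin partners mostly rose, 12 of 15 with 1 lower (median 0.57), and Pkp2 went from 123 and 136 to 324 and 329 CPM. Of the factors, 10 of 18 rose and 6 fell (median 0.20), with Jun at 2.00 and Klf5 at -0.93. Of the junction genes, 6 of 15 rose and 5 fell (median -0.14), and of the trophectoderm markers 5 of 10 rose and 3 fell (median 0.28). Trophectoderm markers summed to 60.0 to 65.7 CPM in shEV and 87.5 to 90.5 CPM in shWdr5 ESCs, primitive endoderm markers to about 400 and to 754 to 769 CPM (9 of 14 higher, 2 lower), and fibroblast markers to 73.0 to 77.2 and 70 to 73.2 CPM (3 of 8 higher, 3 lower). The trophectoderm markers Elf5 and Plac1 and the primitive endoderm markers Foxa2, Cubn and Afp were below 1 CPM in all libraries. Pluripotent ESC markers fell in 8 of 11 cases and rose in 1 (median -0.41), with sums of 9500 to 10300 and 7550 to 7630 CPM. The part of these markers in the keratin values was not tested.

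In the TF-AA mutation, Krt8 and Krt18 rose, where 14.4% of all genes were called higher, 16.1% lower and 30.5% in either direction. Krt7 had 0 and 1 counts in WT ESCs and had 49 and 52 counts in TF-AA ESCs. This gave 0 and 0.0494 CPM against 2.44 and 2.78 CPM, a ratio of counts scaled for library size of 107 with an exact 95% interval of 18.8 to 4270 that covers counting error only. The groups did not overlap, but Krt7 passed the filter on low counts here through the TF-AA libraries alone, so its values are a description and it is not counted among the calls. The fitted log2 fold change ran from 5.54 to 8.70 when a library was left out. Krt8 had 30.0 and 27.7 CPM in WT ESCs and 41.7 and 38.9 CPM in TF-AA ESCs, a ratio of 1.40 (0.48, 0.27 to 0.69, adjusted p = 0.00075). Krt18 had 8.79 and 8.79 against 12.1 and 12.9 CPM, a ratio of 1.42 (0.50, 0.20 to 0.81, adjusted p = 0.011). The Krt18 call was lost without TF-AA replicate 2 (adjusted p = 0.11) and with DESeq2 (adjusted p = 0.11), with all alternatives between 0.0043 and 0.11. Krt19 had 3.25 and 2.91 against 3.23 and 3.20 CPM, and the groups overlapped (0.06, -0.45 to 0.58, adjusted p = 0.88).

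Of the other keratins, edgeR called 4 of 8 higher and 1 lower in TF-AA ESCs, but 3 of the 4 (Krt28, Krt71 and Krt80) passed the filter through the TF-AA libraries alone. DESeq2 called 1 of them, and Krt13 went from 1.77 and 1.58 to 2.98 and 3.90 CPM (1.03, adjusted p = 0.0089). Keratin partners rose in 5 of 14 cases and fell in 1 (median -0.03), with Dsp higher by 0.52. Of the factors, 3 of 17 rose and 5 fell (median -0.16). Fos rose by 1.18 (adjusted p = 4.4e-07), while Grhl2, a regulator of epithelial junctions, stood at -0.68 and Klf5 at -0.45. Of the junction genes, 7 of 16 fell and 1 rose (median -0.18), with Cldn4 at -0.92 and Epcam at -0.64. Trophectoderm markers rose in 2 of 7 cases (Tspan8 through TF-AA alone) and fell in 2 (median -0.10), with sums of 82.5 to 84.9 and 75.6 to 76.3 CPM. Primitive endoderm markers rose in 6 of 11 cases (sums of 333 to 347 and 483 to 490 CPM) and fibroblast markers in 7 of 9 (2 of them, Col1a2 and Col6a1, through TF-AA alone; 36.7 to 38.8 and 63.1 to 66.2 CPM, with Col3a1, Dcn and Lum at 0). Cdx2, Gata3, Elf5, Hand1 and Plac1 of the trophectoderm list were below 1 CPM in all libraries. So were Gata6, Sox17, Hnf4a, Cubn and Afp of the primitive endoderm list. Pluripotent ESC markers rose in 2 of 11 cases and fell in 3 (6180 to 6460 and 6050 to 6150 CPM). Their part in the keratin values was not tested.

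In the RYBP phase disruption, 3 keratins rose and Krt19 fell, where 16.1% of all genes were called higher, 17% lower and 33% in either direction. Rybp itself had 749 and 753 CPM in WT.RYBP ESCs and 662 and 626 CPM with the deleted form (log2 fold change -0.22, edgeR adjusted p = 6.8e-05). Wdr5 (-0.24) and Stat3 (-0.27) were lower as well. The part of these differences in the keratin values was not tested. Krt7 had 4.15 and 5.30 CPM in WT.RYBP ESCs and 13.7 and 14.6 CPM with the deleted form, a ratio of 2.99 (1.58, 1.24 to 1.92, adjusted p = 3e-09). Krt18 had 89.4 and 93.3 against 111 and 111 CPM, a ratio of 1.21 (0.28, 0.16 to 0.40, adjusted p = 3e-04). Both genes separated the groups. Krt8 had 162 and 171 against 175 and 192 CPM, a ratio of 1.10 (0.14, 0.03 to 0.25, adjusted p = 0.038). Krt19 had 30.5 and 28.0 against 20.4 and 24.7 CPM, or 0.773 of WT.RYBP (-0.37, -0.58 to -0.16, adjusted p = 0.0052). The calls of Krt8 and Krt19 depended on single libraries. For Krt8 the adjusted p was 0.38 without WT.RYBP replicate 1, 0.081 without WT.RYBP replicate 2 and 0.37 without phase disruption replicate 2. For Krt19 it was 0.057 without WT.RYBP replicate 1 and 0.12 without phase disruption replicate 1. With DESeq2 it was 0.20 for Krt8 and 0.082 for Krt19, and with no filter on low counts 0.18 and 0.059. Of the called genes 48.7% were higher, and 61.7% with library size alone as scaling.

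Both groups of this table held more Krt8 and Krt18 than the control ESCs of any other table. They also held the highest sum of fibroblast markers, 1170 to 1190 CPM in WT.RYBP and 906 to 960 CPM in the phase disruption (1 of 14 higher, 8 lower), with none of the 14 markers below 1 CPM in all libraries. Their part in the keratin levels was not tested. Of the 7 other keratins tested, edgeR called 2 higher, of which Krt20 passed the filter through the phase disruption libraries alone, and Krt79 went from 0.692 and 0.811 to 3.12 and 2.82 CPM (1.97, adjusted p = 0.00012). Keratin partners rose in 5 of 15 cases and fell in 4 (median -0.02), with Pkp2 at -0.72. Factors rose in 7 of 18 cases and fell in 5 (median -0.03): Elf3 rose by 0.64, while Klf5 stood at -0.76 and Grhl2 at -0.95. Junction genes fell in 8 of 16 cases (median -0.26), including Lgals3 at -0.96, Epcam at -0.38 and Cdh1 at -0.33. Trophectoderm markers rose in 5 of 9 cases (median 0.38), and Hand1 went from 3.27 and 2.93 to 19.3 and 20.6 CPM (2.68, adjusted p = 5.8e-15). Their sum was 96.8 to 105 CPM in WT.RYBP and 140 to 145 CPM in the phase disruption, and primitive endoderm markers summed to 453 to 458 and 473 to 484 CPM (4 of 12 higher). Elf5, Plac1 and Tspan8 of the trophectoderm list were below 1 CPM in all libraries. So were Sox17, Foxa2, Hnf4a and Afp of the primitive endoderm list. Pluripotent ESC markers rose in 1 of 11 cases and fell in 4 (4550 to 4660 and 4550 to 4600 CPM).

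In the RYBP overexpression, edgeR called 0 of the 4 keratins, where 3.63% of all genes were called higher, 2.39% lower and 6.02% in either direction. At an unadjusted p under 0.05 edgeR gave 1 higher and 1 lower, and DESeq2 called 0. Krt8 had 18.9 and 18.9 CPM with vehicle and 14.2 and 15.9 CPM with DOX (-0.33, -0.59 to -0.07, adjusted p = 0.12). The groups did not overlap for Krt8, yet the difference did not pass the threshold after adjustment. Krt7 had 0.609 and 0.174 CPM with vehicle and 1.18 and 0.947 CPM with DOX (1.43, 0.05 to 2.81, adjusted p = 0.24), from 6 to 37 counts per library. The Krt7 value was 2.59 without vehicle replicate 1 (adjusted p = 0.081) and 0.80 without vehicle replicate 2 (adjusted p = 0.61). Krt18 had 6.76 and 6.11 against 5.02 and 7.32 CPM (-0.06, -0.47 to 0.36, adjusted p = 0.93). Krt19 had 4.04 and 2.9 against 3.30 and 3.59 CPM (-0.01, -0.55 to 0.53, adjusted p = 0.99). The groups overlapped for both type I keratins.

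Of the 7 other keratins, edgeR called 0 (median -0.21), with 1 lower at an unadjusted p under 0.05 and 0 by DESeq2. Junction genes rose in 8 of 16 cases (median 0.53): Esrp1 rose from 27.5 and 25.6 to 53.1 and 57.3 CPM (1.06, adjusted p = 7.8e-10), Cldn4 by 0.56 and Cdh1 by 0.45. Of the keratin partners, 2 of 14 rose (median 0.01), Dsp from 25.5 and 23.4 to 44.7 and 48.1 CPM (0.92, adjusted p = 5.2e-08) and Pkp2 by 0.60. Of the factors, 2 of 18 rose (median 0.10), and of the trophectoderm markers 1 of 7 (median -0.20), with sums of 54.7 to 55.2 and 65 to 68.5 CPM. Of 12 primitive endoderm markers, 1 rose and 2 fell, and of 11 pluripotent ESC markers 1 rose (sums of 6860 to 6960 and 6860 to 6980 CPM). Cdx2, Gata3, Elf5, Hand1, Plac1 and Tspan8 of the trophectoderm list were below 1 CPM in all libraries. So were Gata6, Sox17, Foxa2, Hnf4a, Cubn and Afp of the primitive endoderm list. Fibroblast markers summed to 48.2 to 49.1 and 46.3 to 52.7 CPM, with Col3a1, Dcn, Lum and Postn at 0. EdgeR called 0 of 7 of them, with 3 at an unadjusted p under 0.05 and 0 by DESeq2.

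**Figure D2:**
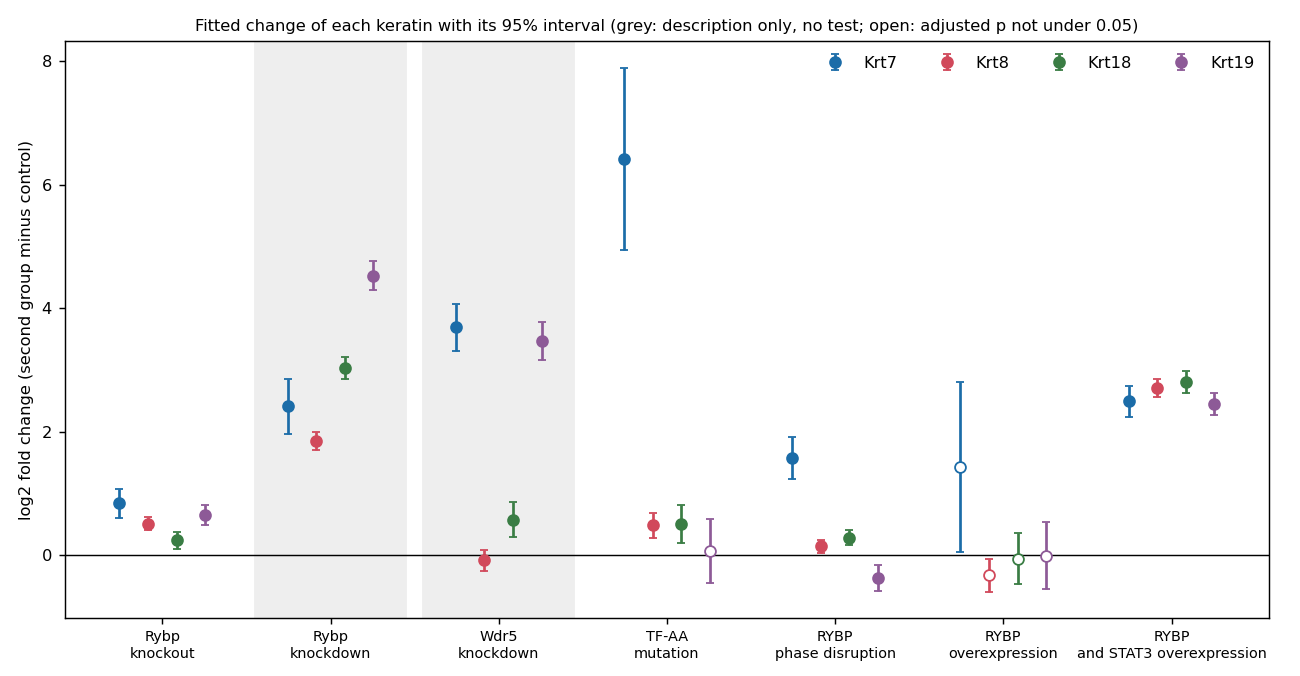
Fitted log2 fold change of each keratin in each of the 7 comparisons, with its 95% interval from edgeR. In the RYBP and STAT3 overexpression the 4 values lie between 2.45 and 2.80, while in the Wdr5 knockdown they run from -0.08 for Krt8 to 3.69 for Krt7; the Krt7 value of the TF-AA mutation rests on 0 and 1 control counts and depends on the prior count.

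In the RYBP and STAT3 overexpression, all 4 keratins rose in the libraries labelled DOX by similar amounts. Krt8 had 81.7 and 74.6 CPM in NTC and 524 and 497 CPM in DOX, a ratio of 6.54 (2.71, 2.56 to 2.86, adjusted p = 3.4e-11). Krt18 had 54.7 and 48.7 against 381 and 339 CPM, a ratio of 6.96 (2.80, 2.62 to 2.98, adjusted p = 7e-11). These were the highest levels of this pair in any library. Krt7 had 6.83 and 8.38 against 42.8 and 42.7 CPM, a ratio of 5.63 (2.49, 2.24 to 2.74, adjusted p = 4.1e-09). Krt19 had 31.9 and 28.2 against 169 and 158 CPM, a ratio of 5.45 (2.45, 2.27 to 2.62, adjusted p = 2.7e-10). All 4 members were called higher where 23% of all genes were called higher, 20.4% lower and 43.4% in either direction. They stood between ranks 203 and 294 of 16291 from the top. The side of these shares and ranks rests on the DOX label.

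Of the other keratins, 3 of 12 fell, of which Krt77 passed the filter through NTC alone, and 0 rose, with 0 higher at an unadjusted p under 0.05 and 0 higher by DESeq2. Krt42 fell from 11.0 and 9.57 to 3.91 and 2.43 CPM (-1.70, adjusted p = 2.6e-05), and Krt17 from 12.1 and 11.4 to 5.68 and 5.05 CPM (-1.13, adjusted p = 3.4e-05). Keratin partners rose in 9 of 15 cases and fell in 1 (median 0.60). Dsp rose from 47.8 and 49.5 to 245 and 244 CPM (2.33, adjusted p = 6.4e-11), and Dsc2, a desmosomal cadherin, from 4.6 and 6.65 to 22.0 and 26.5 CPM. Factors rose in 11 of 18 cases and fell in 3 (median 0.50). The AP-1 genes Jun and Fos rose by 2.59 and 2.5, Jun from 9.00 and 9.64 to 53.0 and 59.0 CPM. Junction genes rose in 15 of 16 cases and fell in 1 (median 1.17), including Cldn6 with 2.1 and Cldn4 with 1.54.

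Trophectoderm markers rose in 8 of 10 cases and fell in 1 in the libraries labelled DOX (median 1.58). Cdx2, a trophectoderm determinant, rose from 0.724 and 0.670 to 9.65 and 10.2 CPM (3.83, adjusted p = 1.4e-08), and Gata3 rose by 4.07. Their sum was 70.9 to 74.4 CPM in NTC and 129 to 139 CPM in DOX, with Elf5 and Plac1 below 1 CPM in all libraries. Pluripotent ESC markers fell in 9 of 11 cases and summed to 6650 to 7040 and 4030 to 4330 CPM. Primitive endoderm markers rose in 5 of 13 cases and fell in 3 (Sox7 through NTC alone), with sums of 374 to 375 and 634 to 659 CPM. Gata4, Gata6, Sox17, Sox7, Foxa2, Cubn and Afp were below 1 CPM in all libraries. Fibroblast markers rose in 6 of 10 cases and fell in 1, with sums of 97.6 to 101 and 245 to 272 CPM and Lum at 0. Mesoderm markers rose in 3 of 6 cases (median 1) and summed to 13.4 to 16.4 CPM in NTC and 62.4 to 69.3 CPM in DOX, with Mesp1 and Kdr below 1 CPM; Eomes and Hand1 are in both this list and the trophectoderm list. T (brachyury), a gene of early mesoderm, rose from 1.45 and 1.56 to 31.2 and 29.9 CPM (4.34, adjusted p = 1.6e-10). Of 3 neural markers 1 rose and 2 fell, with sums of 135 to 147 and 76.4 to 83.4 CPM. Their part in the keratin rise was not tested.

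**Figure D3:**
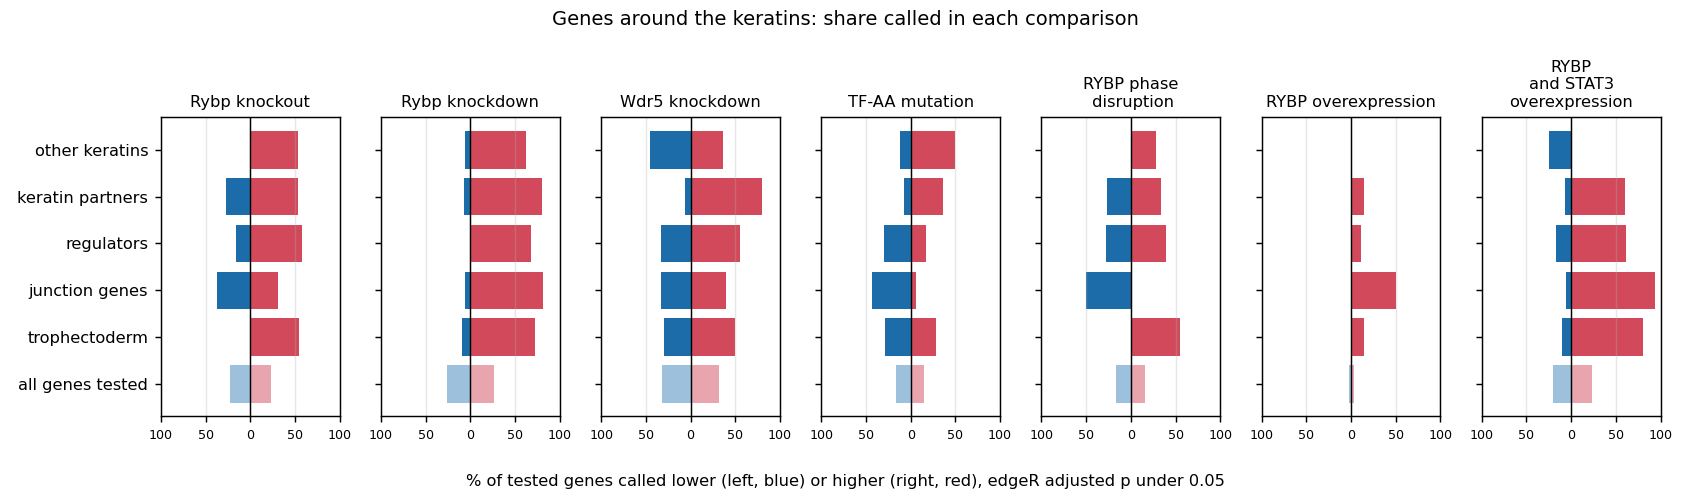
Share of the tested genes of each list, and of all genes, that edgeR called lower (left) or higher (right) in each comparison; regulators are the factors named in the text, and genes that passed the filter through 1 group alone are included. Of the epithelial junction genes 15 of 16 rose in the RYBP and STAT3 overexpression and 8 of 16 fell in the phase disruption.

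Filament genes outside the keratin family had no common direction. Of 13 other intermediate filament genes in each comparison, 5 rose and 3 fell in the Rybp knockout, 5 and 4 in the Rybp knockdown, 3 and 8 in the Wdr5 knockdown (Gfap through shEV alone), 6 and 4 in the TF-AA mutation, 3 and 6 in the phase disruption, 1 and 1 in the RYBP overexpression and 5 and 4 in the RYBP and STAT3 overexpression. Vimentin (Vim), the filament of mesenchymal cells, rose from 144 and 147 to 231 and 225 CPM in the Rybp knockout (0.65) and fell from 527 and 534 to 359 and 384 CPM in the phase disruption (-0.51). In the RYBP overexpression Vim went from 100 and 88.1 to 73.4 and 68.0 CPM (-0.42, adjusted p = 0.00028). Neural markers summed to 102 to 109 CPM in Rybp+/+ and 118 CPM in Rybp-/- ESCs, and to 307 to 320 CPM in shEV and 229 to 231 CPM in shRybp ESCs. In the Wdr5 table they summed to 289 to 302 and 175 to 186 CPM, and mesoderm markers to 17.3 to 19.7 and 19.3 to 22.4 CPM. Mesoderm markers summed to 6.11 to 7.14 and 7.86 to 7.94 CPM in the knockout and to 17.8 to 20.4 and 23.5 CPM in the Rybp knockdown. Neural markers lay at 96.3 to 99.6 and 98.4 to 101 CPM in the TF-AA mutation, 195 to 217 and 176 to 180 CPM in the phase disruption, and 90.9 to 106 and 68.4 to 70.9 CPM in the RYBP overexpression. Mesoderm markers lay at 11.6 and 9.59 to 11.5 CPM, 35.7 to 36.8 and 39.1 to 41.1 CPM, and 11.6 to 15.3 and 15.7 to 16.9 CPM in the same order.

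Across the tables, which were normalized separately and not tested against each other, Krt8 was lowest in Tet.RYBP ESCs with DOX (14.2 and 15.9 CPM), next lowest with vehicle (18.9 and 18.9 CPM), and highest in the rTRS libraries labelled DOX (497 and 524 CPM). Between these, WT ESCs, shEV, shWdr5 and Rybp+/+ ESCs overlapped at 27.7 to 34.6 CPM, while TF-AA, Rybp-/-, NTC, shRybp, WT.RYBP and phase disruption ESCs followed in that order without overlap. Krt18 ran in much the same order, from 5.02 to 381 CPM, with an overlap between shWdr5 and TF-AA ESCs and between vehicle and DOX in the Tet.RYBP ESCs. Krt19 was lowest in shEV ESCs at 1.71 CPM and highest in rTRS DOX at 169 CPM. WT, TF-AA and Tet.RYBP DOX ESCs each overlapped with Tet.RYBP vehicle ESCs, whose libraries lay at 2.9 and 4.04 CPM, and WT.RYBP overlapped with NTC. Krt7 ran from 0 in a WT ESC library to 42.8 CPM in rTRS DOX, with overlaps between shEV and Tet.RYBP DOX, between WT.RYBP and Rybp+/+, between NTC and Rybp-/- and between the phase disruption and shWdr5.

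Per length, type I and type II keratins can be set against each other. The 4 genes together had 24.2 and 25.8 CPM per kb in shEV ESCs and 131 and 142 in shRybp ESCs, against 102 and 92.5 in NTC and 660 and 608 in rTRS DOX. The ratio of type I (Krt18 and Krt19) to type II (Krt7 and Krt8) was 0.418 and 0.336 in shEV ESCs and 1.10 and 1.05 in shRybp ESCs. In shWdr5 ESCs it was 0.955 and 1.12. So at the deposited gene lengths both knockdowns had close to equal type I and type II levels, where shEV ESCs had more type II. In rTRS the ratio was 1.22 and 1.18 in NTC and 1.22 and 1.16 in DOX, so that the groups overlapped while the levels rose. In the knockout it was 1.32 and 1.30 in Rybp+/+ and 1.15 and 1.19 in Rybp-/- ESCs. The balance within type I also differed. Krt19 per Krt18 was 0.17 and 0.166 in shEV ESCs, 0.478 and 0.471 in shRybp ESCs, and 1.42 and 1.17 in shWdr5 ESCs, the only group in which Krt19 exceeded Krt18. In the phase disruption it was 0.139 and 0.168 against 0.257 and 0.227 in WT.RYBP. All ratios with type II rest on Krt8 counts, whose reads are hard to place. Per-length levels use the deposited lengths of 7049, 1805, 1400 and 1855 bases for Krt7, Krt8, Krt18 and Krt19. The Krt7 transcript used here is shorter than its deposited length, with 4063 windows of 32 bases. The per-length level of Krt7, and with it type II, could thus be too low, most of all in shWdr5 ESCs.

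**Figure D4:**
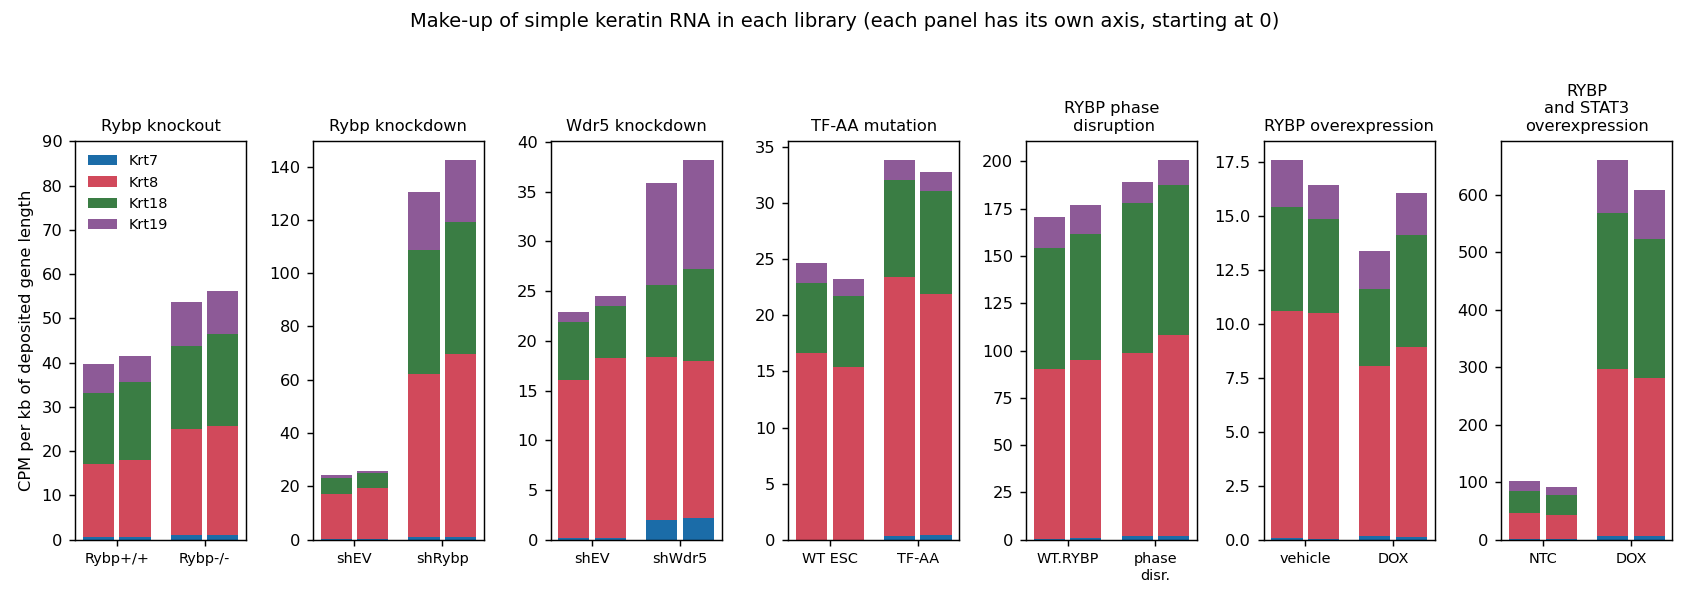
Level of each keratin per kb of gene length in each library (CPM per kb), stacked by gene for the 7 comparisons, each panel with its own axis. The sum goes from 24.2 and 25.8 in shEV to 131 and 142 in shRybp, and Krt19 takes its largest part in shWdr5 ESCs.

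Over the 24 libraries of 6 tables (the Wdr5 knockdown table was left out since its controls are in another table), log2 CPM centred within each table had Pearson r of 0.962 between Krt8 and Krt18, 0.946 between Krt18 and Krt19 and 0.869 between Krt8 and Krt19. With Krt7 it was 0.63 for Krt8, 0.645 for Krt18 and 0.531 for Krt19. All r of Krt7, and the genes most like it, include the TF-AA mutation, where Krt7 had 0 and 1 counts in WT ESCs. They therefore depend on near-zero counts, and r without that comparison was not computed. The points share libraries and the condition of each table, and the Rybp knockdown entered the choice of the genes, so these values are a description. Without the Rybp knockdown table, an alternative chosen after seeing the data, r over 20 libraries was 0.983, 0.926 and 0.947 for these pairs, and 0.549, 0.581 and 0.439 with Krt7. Of 13255 genes tested in all 6 tables, those most like Krt8 were Unc5b (0.989), Cyr61 (0.985) and Farp1 (0.978). Those most like Krt18 were Unc5b (0.976), Jun (0.972) and Itpkb (0.972), those most like Krt19 were Thbs1 (0.977), Col7a1 (0.971) and Tmcc3 (0.97), and those most like Krt7 were Pttg1 (0.955), Hpn (0.950) and Cpeb1 (0.948).

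ChIP-seq peaks showed which marks lie at the 4 promoters. H3K4me3 marks promoters in use or poised, H3K27ac marks active promoters and enhancers, RING1B is the ubiquitin ligase of PRC1, and STAT3 is the transcription factor of LIF signalling. All peak values are the authors' MACS2 fold enrichment over input, with replicates merged in most lists, so no test was possible. The lists were not scaled to each other here, so enrichments of different lists are set side by side only. A gene was said to hold a promoter peak when a peak lay within 2.5 kb of its start site. H3K4me3 lay at all 4 promoters in Rybp+/+ and Rybp-/- ESCs, as at 65.6% and 65.7% of 22359 coding genes. Its fold enrichment was 15.0 in Rybp+/+ and 22.5 in Rybp-/- ESCs at Krt7, 16.7 and 14.7 at Krt8, 11.5 and 12.9 at Krt18, and 27.2 and 28.3 at Krt19. Krt19 thus held the highest of the H3K4me3 peaks, while its RNA per kb was 0.425 and 0.335 of that of Krt18 in the Rybp+/+ libraries.

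H3K27ac was also at all 4 promoters in both genotypes, as at 49.4% and 52.3% of coding genes. At Krt19 the peak at chr11:100006519-100007227 had an enrichment of 3.4 in Rybp+/+ ESCs, at percentile 28.5 of its list. Its counterpart in Rybp-/- ESCs, at chr11:100006309-100007285, had 6.02, at percentile 75.1 of its own list. At the start site of Krt8 the enrichment was 6.41 in Rybp+/+ and 9.29 in Rybp-/- ESCs, and at Krt7 3.83 and 4.85. At a second Krt8 peak, 382 bases downstream of the start site in Rybp+/+ ESCs, it was 7.82 and 7.27. At Krt18 a peak 335 bases downstream of the start site had 4.85 in Rybp+/+ ESCs, at percentile 61.8. Its counterpart in Rybp-/- ESCs, 342 bases downstream, had 2.74, at percentile 10.5. A further Rybp-/- peak over the start site had 2.77, at percentile 11.3. The strongest H3K27ac peak near these genes lay between Krt8 and Krt18, at chr15:101845316-101848399 in Rybp+/+ ESCs with 10.4 and at chr15:101845318-101849471 in Rybp-/- ESCs with 11.7. Next to it, a peak at chr15:101843645-101845085 had 3.66 in Rybp+/+ ESCs and its counterpart at chr15:101843272-101845138 had 7.52 in Rybp-/- ESCs. WDR5 had no peak within 2.5 kb of any of the 4 start sites in either genotype, while 44.6% and 47% of coding genes held such a peak. A WDR5 peak was called at chr15:101848413-101848738, within the Rybp-/- H3K27ac peak between Krt8 and Krt18, in the Rybp-/- list with an enrichment of 6.66.

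**Figure D5:**
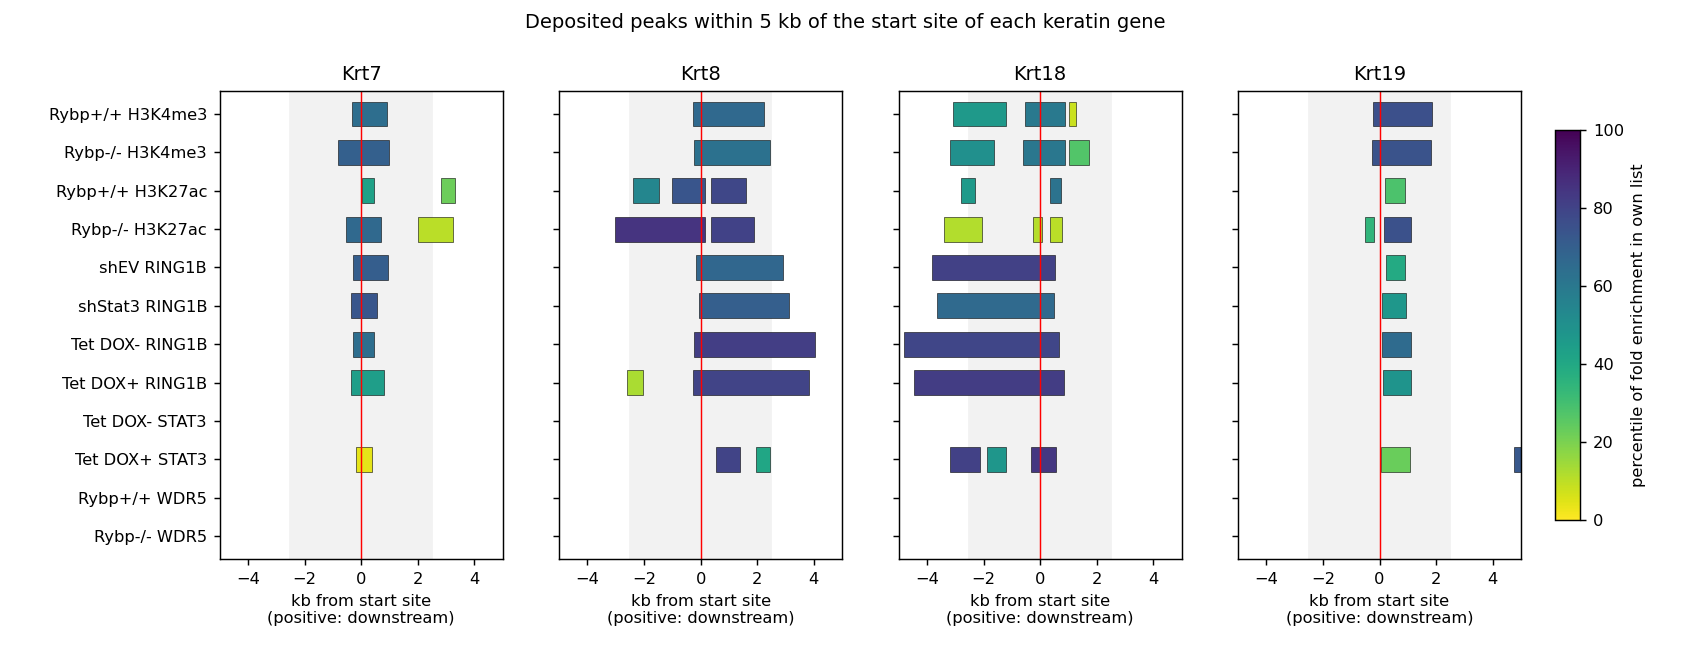
Peaks within 5 kb of each start site in 12 of the lists (x axis in kb, positive downstream), coloured by the percentile of fold enrichment in their own list, with the 2.5 kb window in grey. RING1B peaks lie at all 4 genes in all 4 RING1B lists, and of the STAT3 lists drawn only that with DOX has peaks there.

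RING1B was at all 4 promoters in shEV and shStat3 R1 ESCs and in Tet.Rybp.Stat3 R1 ESCs without and with DOX, against 43.5%, 39.3%, 52.2% and 39.7% of coding genes. Its fold enrichment at Krt18 was 11.8 in shEV, 7.85 in shStat3, 11.8 without DOX and 14.8 with DOX. At Krt8 it was 6.62, 9.19, 13.7 and 12.8 in the same order. The RING1B domains at this pair were wide, 3106 to 4300 bases at Krt8 and 4146 to 5485 bases at Krt18, where the median peak of these lists was 884 to 987 bases. At Krt7 the values were 7.37, 10.4, 7.00 and 4.52, and at Krt19 4.20, 5.07, 7.20 and 4.81, with peaks 719 to 1236 and 663 to 1022 bases wide. Only at Krt18 was the enrichment higher with DOX than without.

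No STAT3 peak was called at the 4 promoters in Rybp+/+ and Rybp-/- ESCs and in Tet.Rybp.Stat3 ESCs without DOX, where such peaks lay at 6.94%, 5.81% and 8.27% of coding genes. With DOX they were called at all 4 promoters and at 54.8% of coding genes, in a list of 30663 peaks against 2816 without DOX. The fold enrichment was 6.64 at Krt18 (percentile 84.0 of the list), 6.20 at Krt8 (80.0), 3.62 at Krt19 (22.9) and 2.78 at Krt7 (4.0). The Krt18 peak at chr15:101858336-101859202 covers its start site, and the Krt8 peak at chr15:101833392-101834229 begins 544 bases into the gene. The 4 of 4 keratins are to be read against that share of all coding genes, and the peaks at Krt7 and Krt19 were among the weaker of the list.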

How the data were processed

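RNA-seq and ChIP-seq of mouse ESCs were analysed from the processed files. Per the labels, RNA reads were trimmed, aligned to mm9 with STAR and counted per gene with HTSeq by the authors, and the deposited values are raw counts. Rows that name no gene held 13.7% to 26.5% of the counts in 3 tables and 56.3% to 58.5% in the Wdr5 knockdown, TF-AA and phase disruption tables, were not in the RYBP overexpression table, and were left out. In the Wdr5 knockdown table the counts of the shEV libraries were 0.509 and 0.506 of those of the same libraries in the Rybp knockdown table. Symbols matched 37205 of 37620 gene IDs, and 0 columns were left without a sample.

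Each table was fitted alone with edgeR 4.0.16 (R 4.3.3): filterByExpr, TMM, the quasi-likelihood test and Benjamini-Hochberg adjustment over all genes tested, with a threshold of 0.05. The SE of a fold change was its size divided by the square root of F. Lists of keratins, keratin partners, other intermediate filaments, factors, junction genes and markers of 6 cell types (trophectoderm, primitive endoderm, fibroblasts, pluripotent ESC, neural, mesoderm) were counted, naming at most 4 genes per list and comparison by smallest adjusted p, and 3 genes most like each member. The members and lists were chosen with earlier results of these data known. The scripts were tested on simulated data. Replicates of a group differed by more than sampling noise, with chi-square per degree of freedom of 2.1 to 13.1.

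ChIP reads were aligned to mm9 by the authors, replicates were mostly merged, and peaks were called with MACS2 against input. The deposited peak lists give a fold enrichment and a −log10 q for each peak. The RING1B lists of shEV and shStat3 ESCs and the STAT3 lists of Rybp+/+ and Rybp-/- ESCs came from 1 library each, and no depth is known. Sequences and positions were read from the mm9 genome and GENCODE annotation. Alternatives were DESeq2 1.42.0, other size factors, no filter, a replicate block, an added log2 fold change threshold of 1, leaving out each library, windows of 1 and 5 kb and a −log10 q of at least 5.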

Additional observations from a re-analysis of the deposited data

How the results depend on the processing

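The 4 keratins had 252 values under alternatives. Of these, 234 kept their direction and their side of the threshold, or moved by less than the spread, and 18 did not. The 234 include 32 values of the Rybp knockdown and 35 of the Wdr5 knockdown, which are descriptions only. They also include 36 of the RYBP overexpression, where no keratin was called, and those of Krt7 in the TF-AA mutation. Nothing is read from the total. DESeq2 left Krt18 in the TF-AA mutation at 0.49 (adjusted p = 0.11), and in the phase disruption Krt8 at 0.13 (0.20) and Krt19 at -0.38 (0.082). Without a filter on low counts these phase disruption values were 0.13 (0.18) and -0.38 (0.059). With library size alone, the Rybp knockdown values moved to 2.57 for Krt7, 2.01 for Krt8, 3.19 for Krt18 and 4.69 for Krt19, with the median of all genes at 0.18.

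Leaving out each library gave 0.16 to 0.32 for Krt18 in the Rybp knockout, 3.57 to 3.83 for Krt7 in the Wdr5 knockdown, 0.45 to 0.55 for Krt18 in the TF-AA mutation, 0.07 to 0.2 for Krt8 and -0.52 to -0.24 for Krt19 in the phase disruption, 0.8 to 2.59 for Krt7 in the RYBP overexpression, which was not called, and 5.54 to 8.70 for Krt7 in the TF-AA mutation. A lone library was then assumed to vary like the other group. Genes called ranged from 2724 to 4767 in the TF-AA mutation (4412 with all libraries, 2911 with DESeq2) and from 406 to 1566 in the RYBP overexpression (899). The lower TF-AA counts came without either TF-AA library, and the lowest RYBP overexpression counts without either DOX library (406 and 409). DESeq2 called 2653 genes in the phase disruption against 4814. An added log2 fold change above 1 left 1330, 2088, 2815, 1176, 986, 135 and 1953 genes in the Rybp knockout, Rybp knockdown, Wdr5 knockdown, TF-AA mutation, phase disruption, RYBP overexpression and RYBP and STAT3 overexpression, by construction.

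Replicate numbers are shared by the groups, but same-numbered libraries did not deviate together (correlations of -0.021 to 0.074), so the numbers do not pair them. With a replicate block, all 28 keratin values kept their call or direction, Krt8 in the phase disruption had an adjusted p of 0.012, and 7724, 9110, 9865, 5525, 5172, 1211 and 8559 genes were called in the same order of comparisons. Counts of promoters with a peak were the same with windows of 1 and 5 kb. With a −log10 q of at least 5, the Rybp-/- H3K27ac and shEV RING1B lists held peaks at 3 of the 4 promoters. Depth limits Krt7 most, with 0 to 52 counts per library in the TF-AA table and 6 to 37 in the RYBP overexpression table. Counts of list genes also depended on the tool. DESeq2 against edgeR gave in the TF-AA mutation 1 against 4 other keratins higher, 2 against 5 partners higher, 1 against 3 factors higher, 4 against 7 junction genes lower and 1 against 4 other intermediate filaments lower. In the phase disruption it gave 3 against 7 factors, 3 against 5 trophectoderm and 1 against 4 primitive endoderm markers higher, and in the Wdr5 knockdown 2 against 5 other keratins and 0 against 3 trophectoderm markers lower. The other list counts above 2 were within 1.5 times of each other. The cause of the changes was not tested.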
